A study of Bos taurus with 30 samples.

Results

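The genes described here carry symbols of 8 families of the vesicle trafficking machinery: RAB, ARF, ARL, SEC, VPS, SNX, STX and VAMP, each followed by a number. They were chosen by symbol alone, though with earlier results of these data known. The rule found 137 of the 13824 probes of a bovine array, that is 274 of 27648 spots. One of these probes carries several symbols and is not named, and the other 136 name 130 genes, of 8073 genes named on the array. The families hold 43 RAB, 3 ARF, 13 ARL, 24 SEC, 24 VPS, 15 SNX, 10 STX and 5 VAMP probes. The study compared caruncular with intercaruncular endometrium of pregnant cows on arrays with 2 colours, both tissues of an animal sharing each array. Caruncles are the raised areas of the uterine lining to which the ruminant placenta attaches, and the intercaruncular endometrium between them carries most of the uterine glands. Pregnancies followed somatic cell nuclear transfer (SCNT, 5 animals), transfer of embryos fertilised in vitro (IVF-ET, 5 animals, of which 4 are used) or artificial insemination (AI, 5 animals). The day of pregnancy, the breed and the donor cells of the SCNT embryos are not given in the sources used here.

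Secretory proteins enter the endoplasmic reticulum (ER) through the SEC61 translocon, where signal peptidase cuts off their leader. They leave in vesicles with a COPII coat, built from SEC13, SEC23, SEC24 and SEC31 proteins, and reach their targets through Rab GTPases, tethering complexes and SNARE proteins, among them syntaxins and VAMPs. Endosomal sorting rests on retromer, sorting nexins and the ESCRT machinery. The endometrium is a secretory tissue, whose products nourish the conceptus before and beside the placenta. The symbol rule also took in a few genes with another role, such as VPS72, which encodes a subunit of chromatin-remodelling complexes, and ARL6IP4, a splicing factor.

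Each value below is read as a log2 ratio between the tissues of 1 animal. It is averaged over duplicate spots and over the animal's 2 arrays, and is called the regional ratio. The arrays did not settle whether the deposited values are ratios between the tissues or between the dyes. Calls under the dye reading are given further below. The deposited ratios have a sign, but which tissue stands on top is not settled by the labels, so values are given as lying on the positive or the negative side. The sign of the AI animals relative to the others is also in doubt, since 7 of 10 AI arrays correlated below 0 with the mean SCNT profile over all probes, between -0.56 and 0.47, so calls and the named differences against AI are given with the AI sign turned as well. All 137 probes had a value in all 14 animals used. Over these probes the 2 arrays of the median animal did not correlate, with a median r of -0.06 and a range of -0.21 to 0.76 over 14 animals. Many of the ratios per animal are therefore averages of arrays that did not reproduce each other. Duplicate spots on an array correlated at a median of 0.81 over 30 arrays. IVF-ET replicate 3 was left out because both its arrays carry the same dye orientation. Over the 137 probes they correlated at -0.19, within the range of the animals kept. SCNT replicate 5 stood apart, with an SD of 0.65 over the 137 probes against 0.16 to 0.27 in the other SCNT animals. For several results that lean on it, values without it or for each animal are therefore given too. In tissue extracts such as these, fewer cells of a type and less RNA per cell cannot be told apart.

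As a whole the trafficking genes showed little difference between the tissues, and 1 of them passed the test. SEC11C, which encodes a catalytic subunit of signal peptidase, was on the positive side in SCNT animals with a limma adjusted p of 0.0248, with adjustment over all 13818 probes tested. This is 1 of 137 probes, or 0.730%, against 1.85% of all probes called in SCNT. No trafficking probe was called in IVF-ET or in AI animals, where 0% of all probes were called. At an unadjusted p under 0.05 were 10 trafficking probes in IVF-ET, 7.30% against 7.94% of all probes, and 4 in AI, 2.92% against 4.41%. In SCNT animals 15 trafficking probes had an unadjusted p under 0.05, 10.9% of them, against 14.8% of all probes. The mean of SCNT and IVF-ET, both groups with a transferred embryo, also called SEC11C alone among them, 0.730% against 3.37% of all probes, with 17 at an unadjusted p under 0.05, 12.4% against 15.1%.

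The typical trafficking gene differed between the tissues by far less than SEC11C. Absolute mean ratios had a median of 0.107 in SCNT, 0.0973 in IVF-ET and 0.0774 in AI animals, against 0.0985, 0.0886 and 0.0729 over all probes. Means under 0.25 in size were found for 116 of 137 probes in SCNT, 126 in IVF-ET and 131 in AI animals. The median standard error of a trafficking probe was 0.109 in SCNT, 0.122 in IVF-ET and 0.109 in AI animals. Signed means had a median of -0.05 in SCNT, 0.01 in IVF-ET and 0.03 in AI animals. On the negative side were 87 of 137 probes in SCNT, 63.5% against 49.8% of all probes, but 67 in IVF-ET, 48.9% against 49.5%, and 58 in AI, 42.3% against 48.3%. Without SCNT replicate 5, 82 probes had an SCNT mean below 0, 59.9% against 48.9% of all probes, and the median was -0.03.

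**Figure D1:**
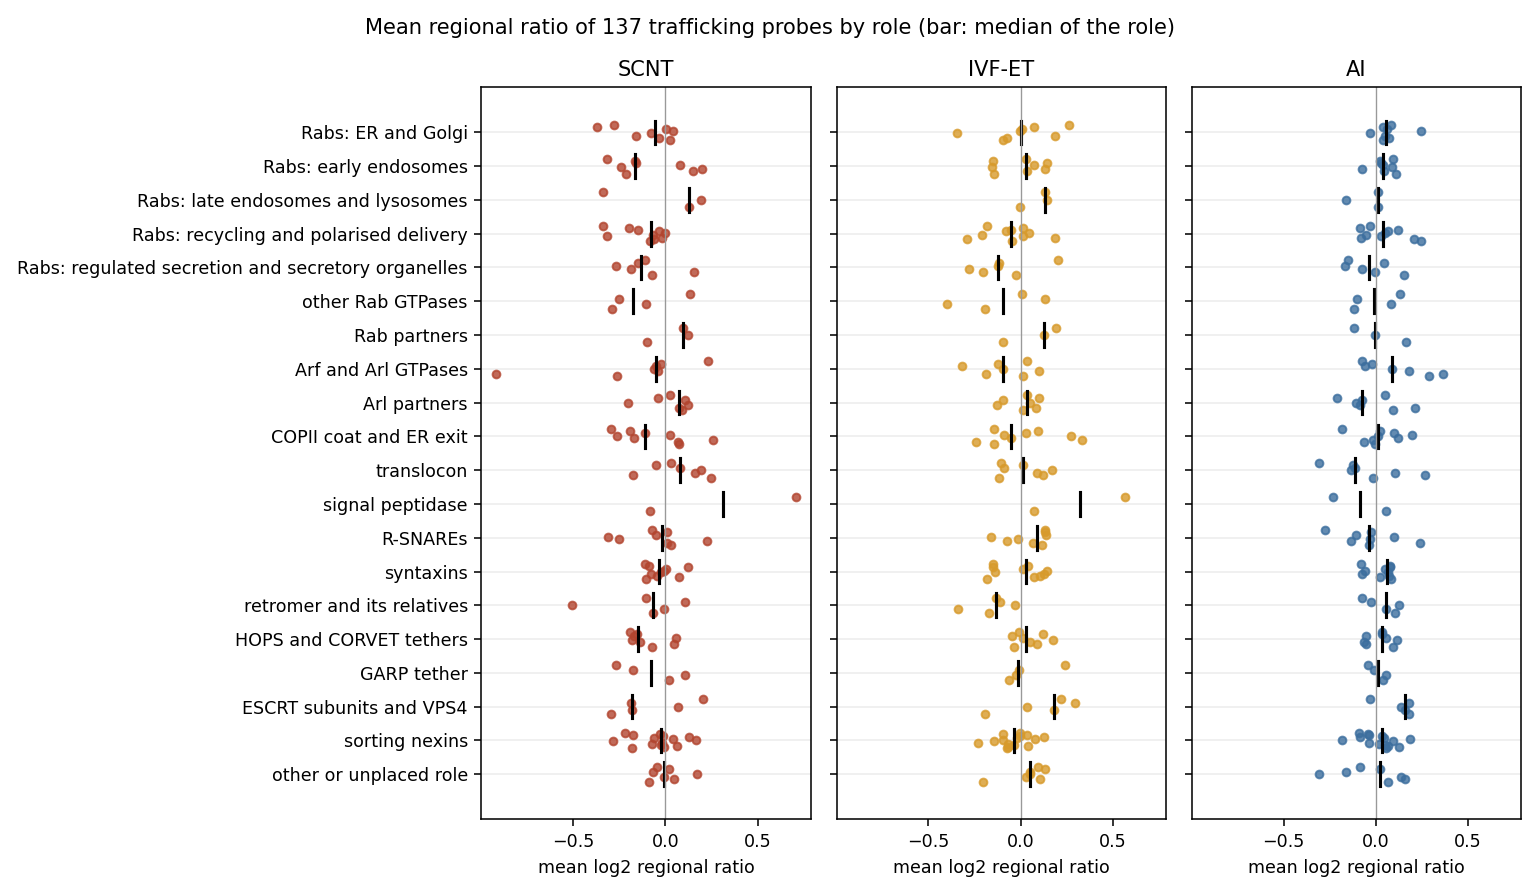
Mean log2 regional ratio (horizontal axis) of each of 137 trafficking probes in SCNT, IVF-ET and AI animals, in rows by the role of the gene, with 1 point per probe and a black bar at the median of the role. Most points lie within 0.25 of 0, and SEC11C, in the signal peptidase row, lies at 0.71 in SCNT, 0.57 in IVF-ET and -0.23 in AI animals.

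SEC11C had regional ratios of 0.38, 1.02, 1.13, 0.45 and 0.56 in the SCNT animals, 1.07, 0.19, 0.17 and 0.84 in the IVF-ET animals, and 0.17, -0.58, -0.30, -0.49 and 0.03 in the AI animals. All 9 SCNT and IVF-ET animals lay on the positive side, and all 5 SCNT animals lay above all AI animals, while the lowest IVF-ET animals overlapped the highest AI animal. The mean was 0.71 ± 0.35 in SCNT, 0.57 ± 0.46 in IVF-ET and -0.23 ± 0.33 in AI animals (SD, n = 5, 4 and 5). In SCNT this is a 1.63-fold difference between the tissues. Averaged over both transfer groups, the ratio was 0.64 ± 0.11 (SE), or 1.56-fold, with a limma adjusted p of 0.00608. The IVF-ET mean on its own had an adjusted p of 0.346 and the AI mean one of 1.00.

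SEC11C was on the positive side on 10 of 10 SCNT arrays, 7 of 8 IVF-ET arrays and 3 of 10 AI arrays, and its duplicate spots differed by a median of 0.15 and at most 0.39. The arrays of SCNT replicate 4 lay apart, at 0.01 and 0.88, as did those of AI replicate 1, at 0.69 and -0.34, and of AI replicate 3, at 0.15 and -0.75. With each animal left out in turn, the transfer groups' mean stayed called in 14 of 14 fits, with ratios of 0.55 to 0.70. The SCNT call was kept in 11 of 14 fits, but leaving out an IVF-ET or AI animal does not change the SCNT mean. Of the fits without an SCNT animal, only those without replicate 4 or 5 kept the call. The limma adjusted p was 0.0553, 0.105 and 0.101 without SCNT replicate 1, 2 or 3. If the deposited values were dye ratios rather than tissue ratios, the SCNT mean of SEC11C would be 0.01 and not called.

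**Figure D2:**
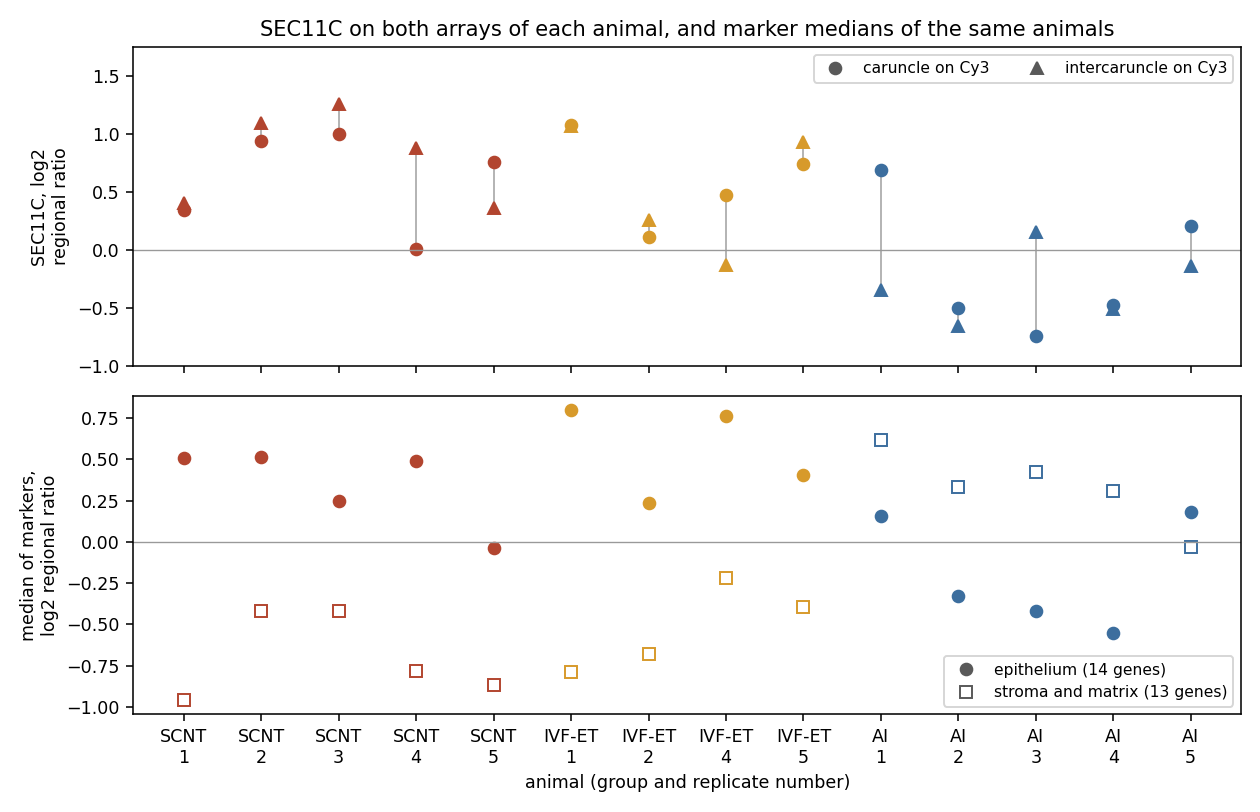
Upper panel: log2 regional ratio of SEC11C on both arrays of each animal, with the dye effect taken off and the symbol giving the tissue on Cy3. Lower panel: median log2 regional ratio of 14 epithelial and 13 stromal and matrix marker genes in the same animals. SEC11C and the epithelial median are mostly above 0 in SCNT and IVF-ET animals, and the stromal median lies below 0 in all 9 of them.

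Epithelial and stromal markers also differed between the tissues, and in the same animals. The markers were listed with earlier results of these data known, so their calls are descriptions. The 14 epithelial markers measured of 15 listed had median ratios of 0.34 in SCNT, 0.54 in IVF-ET and -0.18 in AI animals, and 4 of them were called in SCNT, all positive (CGN, DSP, EZR and OCLN). Of all probes, 1.85% were called in SCNT. Per animal the epithelial median was 0.51, 0.51, 0.25, 0.49 and -0.04 in SCNT, 0.80, 0.23, 0.76 and 0.41 in IVF-ET and 0.15, -0.33, -0.42, -0.55 and 0.18 in AI animals. SEC11C and the epithelial median lay on the same side of 0 in every animal but SCNT replicate 5, which had an epithelial median of -0.04 with SEC11C at 0.56. The order of animals was not the same for both, since SCNT replicate 3 had the highest SEC11C ratio, 1.13, with a median of 0.25. Stromal and matrix markers, 13 of 15 measured, had medians of -0.85 in SCNT, -0.50 in IVF-ET and 0.21 in AI animals, with 6 called negative in SCNT. With the AI sign turned, the epithelial and stromal medians of AI would lie on the same sides as those of the transfer groups. Uterine gland markers, 5 of 9 measured, had medians of 0.10, 0.15 and 0.09 in SCNT, IVF-ET and AI, none called. No endothelial, leukocyte, smooth muscle or trophoblast marker was called in any comparison. The part of these cell types in the SEC11C result was not tested, and the labelled tissues cannot be checked by absence of a marker, because a ratio gives no level.

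The other signal peptidase subunits were not called. SEC11A, the other catalytic subunit of signal peptidase, averaged -0.08 ± 0.20 in SCNT, 0.08 ± 0.30 in IVF-ET and 0.06 ± 0.32 in AI animals (SD, n = 5, 4 and 5). Its values were 0.07, -0.34, 0.16, -0.10 and -0.21 in SCNT animals, and it was called in no comparison. The non-catalytic subunits SPCS1, SPCS2 and SPCS3 had SCNT means of 0.08, -0.06 and 0.01 and IVF-ET means of -0.06, 0.07 and 0.02, none called. Whether SEC11C differed from its partner subunits was not tested. Among the 7 translocon probes of 6 genes, which include the channel subunits SEC61A1, SEC61B and SEC61G and their partners SEC62 and SEC63, SCNT means ran from -0.18 for SEC61A1 to 0.25 for SEC63, with a median of 0.08, and no probe was called. Of the translocon-associated complex, outside the symbol families, SSR3 and SSR2 had SCNT means of -0.62 ± 0.16 and -0.61 ± 0.20 (SE, limma adjusted p = 0.0656 and 0.138), and SSR3 was called in the mean of SCNT and IVF-ET. SSR1, of the same complex, lay on the other side, at 0.15 ± 0.08 in SCNT (SE, limma adjusted p = 0.408). SSR3 stood at -1.63 in SCNT replicate 5, against -0.62 to -0.04 in the other SCNT animals.

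Of the COPII genes, SEC31A, a subunit of the outer coat, had the largest mean over the transfer groups. SEC31A had ratios of 1.27, -0.06, 0.20, 0.07 and -0.17 in SCNT animals, 0.58, 0.42, 0.26 and 0.07 in IVF-ET animals, and 0.46, -0.12, -0.42, -0.42 and 0.43 in AI animals. SCNT replicate 1 alone was far above the other SCNT animals, and the groups overlapped. The mean of SCNT and IVF-ET was 0.30 ± 0.13 (SE, limma adjusted p = 0.3004) and was 0.17 without SCNT replicate 1. The 9 COPII and ER exit probes had medians of -0.11 in SCNT, -0.05 in IVF-ET and 0.01 in AI animals, with none called. Per SCNT animal the median was 0.04, -0.06, 0.07, 0.01 and -0.17.

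**Figure D3:**
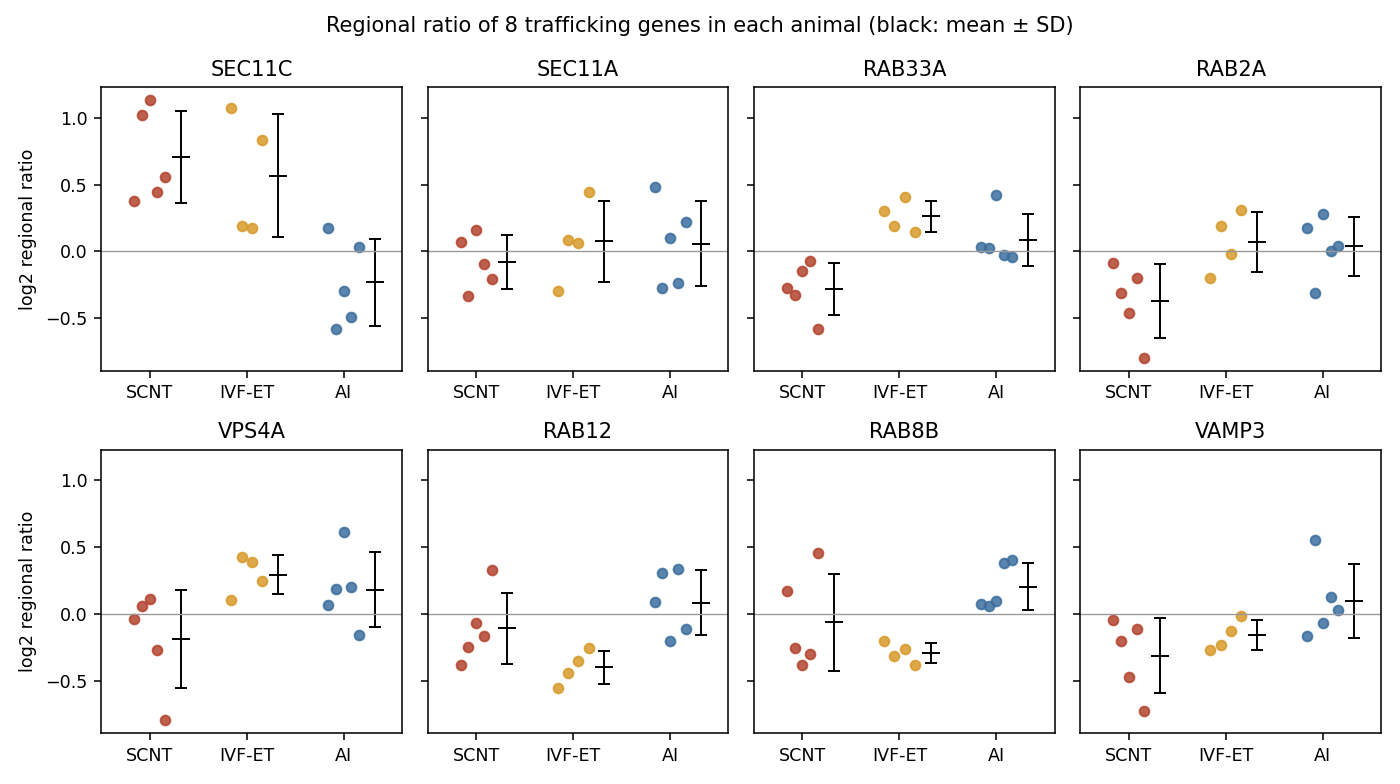
Log2 regional ratio (vertical axis) of SEC11C, SEC11A, RAB33A, RAB2A, VPS4A, RAB12, RAB8B and VAMP3 in each SCNT, IVF-ET and AI animal, with 1 point per animal and the mean ± SD of the group in black. SEC11C lies above 0 in all 9 SCNT and IVF-ET animals, and RAB33A lies below 0 in all SCNT animals and above 0 in all IVF-ET animals.

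Rab GTPases mark membrane compartments and recruit the factors that move, tether and fuse vesicles. None of the 43 RAB probes was called in any comparison. Their median was -0.08 in SCNT, 0.00 in IVF-ET and 0.04 in AI animals, and 30 of 43 had an SCNT mean below 0. Per animal the SCNT median was -0.13 in replicate 5 and -0.07 to -0.03 in the others. RAB33A, a Golgi Rab, was the trafficking probe with the smallest p for SCNT against IVF-ET. RAB33A had ratios of -0.28, -0.32, -0.14, -0.07 and -0.58 in SCNT animals and 0.31, 0.19, 0.41 and 0.15 in IVF-ET animals, so the groups did not overlap and lay on opposite sides. In AI animals it had ratios of 0.04, 0.03, 0.42, -0.03 and -0.04. The difference of SCNT and IVF-ET was -0.54 ± 0.13 (SE), and although it had the smallest p of all 13818 probes, its limma adjusted p was 0.915. RAB33A had been named by an earlier look at these data, so its place in this order is a description.

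RAB2A, which acts between the ER and the Golgi, followed the same order of groups less clearly. Its ratios were -0.09, -0.31, -0.46, -0.20 and -0.80 in SCNT animals, -0.20, 0.19, -0.02 and 0.31 in IVF-ET animals, and 0.17, -0.31, 0.28, 0.00 and 0.04 in AI animals. All SCNT animals were negative, but 1 IVF-ET animal lay among them, and the difference of SCNT and IVF-ET was -0.44 ± 0.16 (SE, limma adjusted p = 0.915), or -0.33 without SCNT replicate 5. The SCNT mean of -0.37 ± 0.11 (SE) had an adjusted p of 0.0942.

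RAB12, linked to the degradation of the transferrin receptor, was lowest in IVF-ET. RAB12 had ratios of -0.38, -0.25, -0.07, -0.16 and 0.33 in SCNT animals, -0.55, -0.44, -0.35 and -0.26 in IVF-ET animals, and 0.09, 0.31, -0.20, 0.34 and -0.11 in AI animals. All 4 IVF-ET animals lay below all 5 AI animals. The difference of IVF-ET and AI was -0.48 ± 0.15 (SE, limma adjusted p = 0.335), and with the AI sign turned it was -0.31 and the groups overlapped. The mean of SCNT and IVF-ET was -0.25 ± 0.08 (SE, limma adjusted p = 0.0917). Without SCNT replicate 5, the mean of SCNT and IVF-ET was called at -0.31, with an adjusted p of 0.0145.

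RAB8B, which delivers membrane to the cell surface, had ratios of 0.18, -0.26, -0.38, -0.30 and 0.46 in SCNT animals, -0.20, -0.31, -0.26 and -0.38 in IVF-ET animals, and 0.08, 0.06, 0.09, 0.38 and 0.40 in AI animals. Every IVF-ET animal was negative and every AI animal positive, while the SCNT animals lay on both sides. The difference of IVF-ET and AI was -0.49 ± 0.16 (SE, limma adjusted p = 0.352), but with the AI sign turned it was -0.0851 and the groups overlapped. A second probe of RAB8B gave a difference of -0.18, with IVF-ET ratios of -0.13 to 0.05 and AI ratios of -0.15 to 0.44. On that probe the groups overlapped, so the separation as well as the size depended on the probe. RAB35, a Rab of endocytic recycling, had the SCNT ratios -0.01, -0.02, -0.41, 0.00 and -1.26, and its IVF-ET ratios were 0.36, -0.27, -0.27 and -0.54, against AI ratios of -0.23, 0.09, -0.02, 0.12 and -0.12. Its mean over the transfer groups was -0.26 ± 0.12 (SE, limma adjusted p = 0.302), and was -0.15 without SCNT replicate 5.

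Among the 8 early endosome Rabs, the median was -0.16 in SCNT, 0.03 in IVF-ET and 0.04 in AI animals. Per SCNT animal it was -0.15, -0.07, -0.02, -0.12 and -0.28. RAB31, a Rab of early endosomes and the trans-Golgi network that is named here after its values were seen, was negative in all 9 SCNT and IVF-ET animals. Its ratios were -0.22, -0.27, -0.01, -0.24 and -0.47 in SCNT and -0.21, -0.15, -0.13 and -0.13 in IVF-ET animals, against -0.03, 0.03, 0.46, -0.09 and 0.07 in AI animals. Together with ARL10 and VAMP3 it made up the 3 of 137 trafficking probes, 2.19%, that were negative in all 9 animals, against 2.10% of all probes. SEC11C was the 1 probe positive in all 9, 0.730% against 2.27%.

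Arf and Arl GTPases recruit coats and other effectors to membranes, and none of the 7 probes was called in any comparison. ARL10 had the lowest SCNT mean of all trafficking probes, -0.92 ± 0.32 (SE, limma adjusted p = 0.166), and the highest AI mean, 0.36. ARL10 had ratios of -0.12, -0.49, -0.27, -0.39 and -3.32 in SCNT animals, -0.46, -0.05, -0.20 and -0.05 in IVF-ET animals, and 0.52, 0.25, 0.57, 0.53 and -0.06 in AI animals. All SCNT animals lay below all AI animals, and SCNT replicate 5 was far below the rest. The difference of SCNT and AI was -1.28 ± 0.45 (SE, limma adjusted p = 0.201), and without SCNT replicate 5 it was -0.68 ± 0.15 (SE) and called, with an adjusted p of 0.0308. With the AI sign turned the groups overlapped and the difference was -0.55, or 0.0470 without SCNT replicate 5, called in neither case.

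ARL3, which releases lipid-modified proteins into cilia, had IVF-ET ratios of -0.28, -0.31, -0.39 and -0.29. Its SCNT ratios were 0.01, -0.23, -0.11, -0.24 and 0.31, and its AI ratios were -0.23, -0.05, 0.02, 0.13 and -0.17. The IVF-ET animals lay below all SCNT and all AI animals. The IVF-ET mean was -0.32 ± 0.09 (SE, limma adjusted p = 0.349). ARF5 and ARF2, Arf GTPases of the Golgi, stayed near 0, with SCNT means of -0.06 ± 0.07 and -0.02 ± 0.15, IVF-ET means of -0.09 ± 0.25 and -0.12 ± 0.18, and AI means of 0.09 ± 0.28 and -0.02 ± 0.39 (SD).

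In endosomal sorting, ESCRT complexes bud vesicles into multivesicular bodies, and VPS4 ATPases take the complexes apart. The 5 probes of ESCRT subunits and VPS4 had medians of -0.18 in SCNT, 0.18 in IVF-ET and 0.16 in AI animals, and none was called. The SCNT median leaned on replicate 5, since per animal it was 0.02, 0.01, -0.07, 0.05 and -0.79. VPS4A had ratios of -0.03, 0.06, 0.11, -0.27 and -0.79 in SCNT animals, 0.11, 0.43, 0.39 and 0.25 in IVF-ET animals, and 0.07, 0.19, 0.61, 0.20 and -0.16 in AI animals. All IVF-ET animals were positive. The difference of SCNT and IVF-ET was -0.48 ± 0.18 (SE, limma adjusted p = 0.915), and -0.33 without SCNT replicate 5. VPS25, an ESCRT-II subunit, had ratios of -0.38, 0.01, -0.20, 0.22 and -1.12 in SCNT animals, -0.24, -0.20, 0.03 and -0.36 in IVF-ET animals, and 0.13, 0.12, 0.25, 0.13 and 0.27 in AI animals. Its AI animals were all positive and within a narrow band, and its mean over the transfer groups was -0.24 ± 0.10 (SE, limma adjusted p = 0.243), or -0.14 without SCNT replicate 5.

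Retromer returns cargo from endosomes to the Golgi or the cell surface. VPS26B, one of its subunits, had ratios of 0.06, -0.30, 0.13, -0.11 and -2.32 in SCNT animals, 0.05, 0.18, -0.28 and -0.06 in IVF-ET animals, and 0.12, 0.20, 0.18, 0.15 and -0.02 in AI animals. Its SCNT mean of -0.51 was set by replicate 5 and was -0.05 without it. The tethers HOPS and CORVET, which bring endosomes and lysosomes together, had a median over 8 probes of -0.15 in SCNT, 0.03 in IVF-ET and 0.03 in AI animals. Per animal their SCNT median was -0.15, 0.05, 0.02, -0.06 and -0.42, lowest in replicate 5. The 15 sorting nexins had medians of -0.02, -0.04 and 0.03 in SCNT, IVF-ET and AI. SNX22 had an SCNT mean of -0.28 ± 0.71, an IVF-ET mean of -0.14 ± 0.50 and an AI mean of 0.09 ± 0.20, and SNX9, which acts with dynamin in endocytosis, means of -0.18 ± 0.31, -0.08 ± 0.19 and 0.06 ± 0.17 (SD). Without SCNT replicate 5 the SCNT means were 0.02 for SNX22 and -0.05 for SNX9.

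SNARE proteins fuse the vesicle with its target. VAMP3, of recycling endosomes, was negative in all transfer animals, with ratios of -0.04, -0.20, -0.47, -0.11 and -0.72 in SCNT and -0.27, -0.23, -0.13 and -0.02 in IVF-ET animals, against -0.16, 0.55, -0.06, 0.13 and 0.03 in AI animals. The mean of SCNT and IVF-ET was -0.23 ± 0.08 (SE, limma adjusted p = 0.145). VAMP4, of the trans-Golgi network, had ratios of 0.19, 0.36, -0.05, 0.15 and 0.48 in SCNT animals, -0.10, 0.15, -0.21 and -0.14 in IVF-ET animals, and -0.10, -0.04, -0.24, -0.39 and 0.10 in AI animals. Its SCNT mean was 0.22 ± 0.09 (SE, limma adjusted p = 0.243), and the groups overlapped. STX8, a syntaxin of late endosomes, averaged -0.10 ± 0.42 in SCNT, -0.18 ± 0.29 in IVF-ET and 0.08 ± 0.22 in AI animals, and STX2, a syntaxin of the plasma membrane, -0.11 ± 0.28, -0.15 ± 0.19 and -0.08 ± 0.23 (SD). Without SCNT replicate 5 the SCNT means were 0.06 for STX8 and -0.23 for STX2. None of the 10 syntaxin or 8 R-SNARE probes was called.

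SCNT replicate 5 differed from its group over the trafficking genes as a whole. For 86 of 137 probes it was the SCNT animal farthest from 0, and 15 probes exceeded 1 in size in it, all on the negative side, against at most 2 in any other animal. Besides ARL10, VPS26B, SNX22, RAB35 and VPS25 they included RAB24 at -1.73, VAMP8 at -1.42, ARL2 at -1.32, SEC24D at -1.24, RAB5C at -1.19 and RAB7A at -1.18, named here after their values were seen. Another probe of VAMP8 stood at -0.42 in SCNT replicate 5. In the other 4 SCNT animals RAB24 had -0.03, -0.10, 0.41 and 0.20, and RAB7A, the Rab of late endosomes, -0.19, -0.18, 0.07 and -0.22. The same animal had 1262 of all probes over 1 in size, against 42 to 144 in the others, and its 2 arrays correlated at 0.76 over the trafficking probes, the highest of the 14 animals. Its epithelial marker median was -0.04 and its stromal median -0.87. Without it, SCNT still called 1 trafficking probe (SEC11C), the mean of SCNT and IVF-ET called 3 (SEC11C, RAB12 and ARL3) and SCNT against AI called 2 (SEC11C and ARL10), beside 229, 745 and 242 of all probes. With the AI sign turned as well, SCNT against AI called 0 of all probes.

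**Figure D4:**
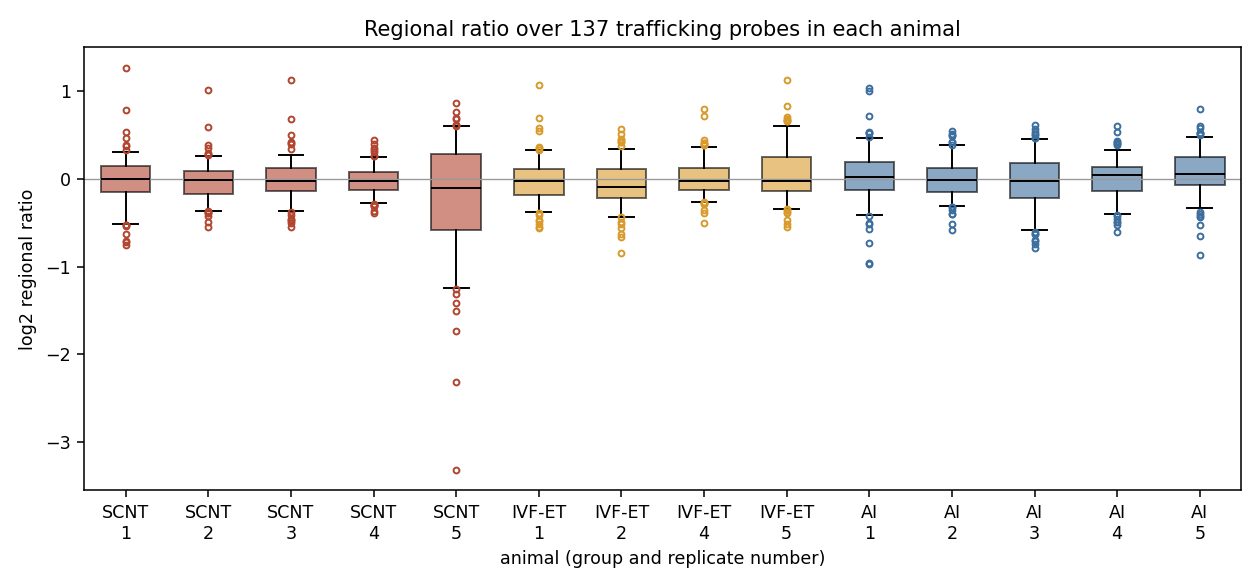
Log2 regional ratio of 137 trafficking probes in each SCNT, IVF-ET and AI animal. Boxes span the quartiles, the line is the median, whiskers reach percentiles 5 and 95 and circles are probes beyond them. SCNT replicate 5 has the widest box and the lowest probe, ARL10 at -3.32.

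The groups were then compared with each other. SCNT minus AI called 1 trafficking probe, SEC11C, 0.730% against 0.970% of all probes, and 13 had an unadjusted p under 0.05, 9.49% against 12.9%. SEC11C had a difference of 0.94 ± 0.21 (SE, limma adjusted p = 0.0481). With the AI sign turned, the difference was 0.47 and not called (adjusted p = 0.759), and 0 of all probes were called, with 7 trafficking probes at an unadjusted p under 0.05, 5.11% against 6.49% of all probes. Of 14 fits that each left out 1 animal, 4 kept the call, with differences of 0.83 to 1.04. IVF-ET minus AI called no trafficking probe, against 0.0579% of all probes, with 6 at an unadjusted p under 0.05, 4.38% against 8.37%, and gave SEC11C a difference of 0.80 ± 0.23 (SE, limma adjusted p = 0.275). With the AI sign turned the SEC11C difference was 0.34, and no trafficking probe was called either, with 4 at an unadjusted p under 0.05, 2.92% against 3.77%. SCNT minus IVF-ET called none, against 0% of all probes, with 8 at an unadjusted p under 0.05, 5.84% against 4.41% of all probes. SEC11C differed by 0.14 ± 0.23 (SE) between SCNT and IVF-ET.

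Groups that did not overlap were about as common as in the background for SCNT against AI, where 4 trafficking probes, 2.92%, were separated, against 2.84% of all probes. SEC11C lay higher in SCNT, and RAB4B, ARL10 and RAB33A lower. RAB4B, a Rab of early endosome recycling, had ratios of -0.30, -0.21, -0.03, -0.12 and -0.40 in SCNT and 0.05, 0.13, 0.20, 0.07 and 0.09 in AI animals. With the AI sign turned, 0 were separated, against 0.825%. Between IVF-ET and AI 10 were separated, 7.30% against 3.33%, of which ARL6IP4, SEC22C and RAB3A lay higher in IVF-ET and RAB8B, VPS26C, RAB12, VPS25, RAB31, ARL3 and SEC16B lower, and with the AI sign turned 2 were (ARL3 and RAB33A), against 1.48%. The second probe of RAB8B did not separate IVF-ET from AI. Between SCNT and IVF-ET 4 were separated, 2.92% against 2.27%, with SEC23IP and ARL3 higher and RAB33A and RAB3A lower in SCNT.

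**Figure D5:**
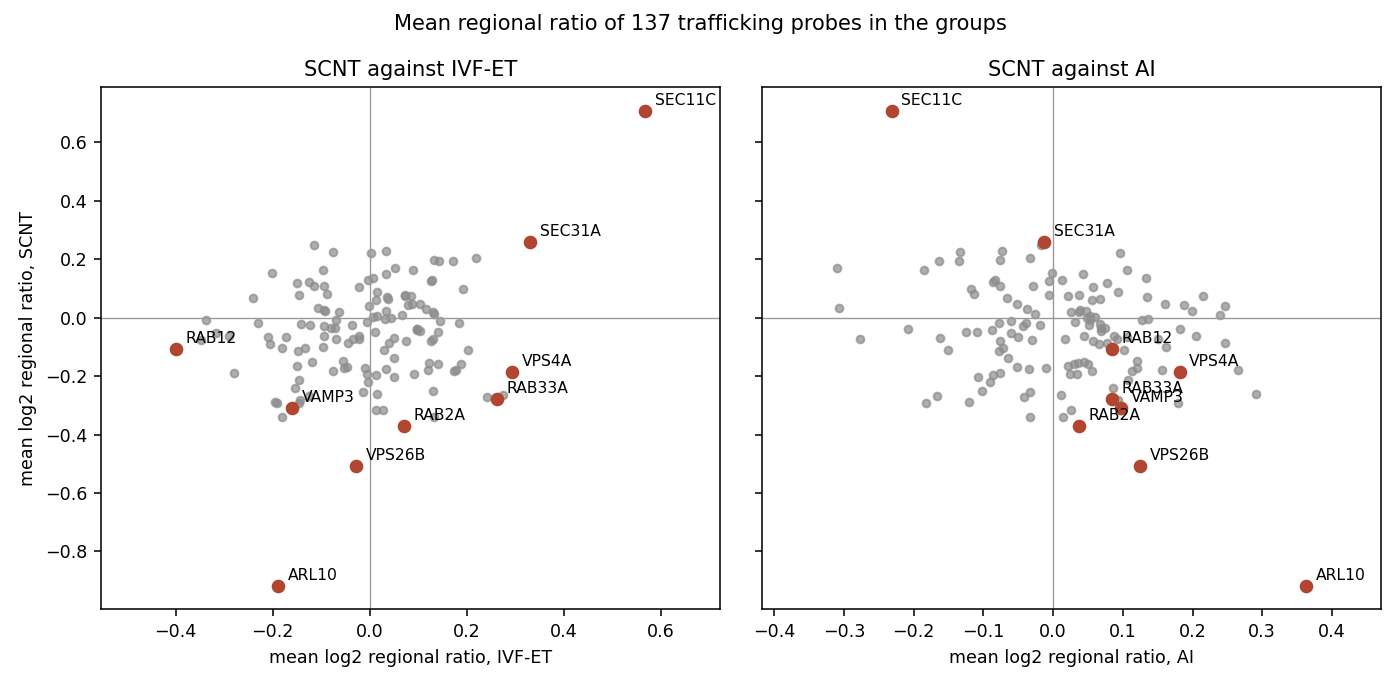
Mean log2 regional ratio of 137 trafficking probes in SCNT animals (vertical axis) against IVF-ET animals (left) and AI animals (right), with 9 genes labelled. SEC11C lies at 0.71 in SCNT with 0.57 in IVF-ET and -0.23 in AI, and ARL10 at -0.92 in SCNT with -0.19 in IVF-ET and 0.36 in AI.

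Across the 137 probes, the group means of SCNT and IVF-ET correlated at 0.23, against 0.45 over all probes. SCNT and AI correlated at -0.29 over the trafficking probes and -0.29 over all, and IVF-ET and AI at -0.12 and -0.27, and these signs turn with the AI sign. These are descriptions across genes, which are not independent replicates. For the 5 genes measured by several probes, 7 pairs of probes correlated over the 14 animals at -0.57 (ARL6IP1) to 0.67 (RAB11B), with a median of 0.37.

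Trafficking genes outside the symbol families showed a few more calls. Of 173 listed genes 122 were measured, and 2 were called in SCNT, 1.64% against 1.85% of all probes, both positive. RABEP1, an effector of RAB5 on early endosomes, had ratios of 0.74, 0.58, 0.90, 0.85 and 0.87 in SCNT animals, 0.99, 0.16, -0.03 and 0.22 in IVF-ET animals, and 0.13, -0.70, -0.83, -0.19 and 0.22 in AI animals, with an SCNT mean of 0.79 ± 0.15 (SE, limma adjusted p = 0.0168). TSG101, an ESCRT-I subunit that receives ubiquitinated cargo, had ratios of 0.42, 0.43, 0.30, 0.49 and 0.95 in SCNT animals, 0.35, -0.12, 0.04 and 0.23 in IVF-ET animals, and 0.06, -0.16, -0.45, -0.28 and 0.11 in AI animals, with an SCNT mean of 0.52 ± 0.10 (SE, limma adjusted p = 0.0190). In both, all SCNT animals lay above all AI animals, but with the AI sign turned the groups overlapped.

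The mean of SCNT and IVF-ET called 6 of the 122, 4.92% against 3.37%. Positive were RABEP1 at 0.56, TMED4, a cargo receptor, at 0.40 and TSG101 at 0.32. Negative were SSR3, a subunit of the translocon-associated complex, at -0.51, AP1S2, a subunit of the clathrin adaptor AP-1, at -0.49 and KDELR3, a receptor that returns ER proteins, at -0.29. AP1S2 was alike in all transfer animals, with ratios of -0.53 to -0.35 in SCNT and -0.69 to -0.31 in IVF-ET, but spread from -0.61 to 0.53 in AI animals. SCNT minus AI called 3 (RABEP1, TSG101 and KDELR3), 2.46% against 0.970%, and none of these calls was kept with the AI sign turned, when the differences were 0.51, 0.37 and 0.11. IVF-ET and AI on their own called none, against 0% of all probes. The 122 genes had medians of -0.07 in SCNT, -0.01 in IVF-ET and 0.01 in AI animals, and TMED4 and KDELR3 are named here because they complete the count. The median of the 122 was -0.17 in SCNT replicate 5 and -0.01 to 0.03 in the other SCNT animals.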

How the data were processed

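RNA of both tissues of each animal was labelled with Cy3 and Cy5 and hybridised together, on 2 arrays per animal with the dyes exchanged in 14 of 15 animals, per the labels' protocols. The authors deposited 1 signed log ratio per spot, taken here as log2 and already turned to the tissues. Their normalisation, log base and channel order are not given in the sources used here. Array medians lay between -0.0205 and 0.019, and 26744 to 27643 of 27648 spots had a value. No intensities were used, so signal over background is unknown and the number of arrays limits the precision. All 14 arrays with caruncle on Cy3 write every value with 4 decimals and none of the 16 others does, so the number format differs with dye orientation.

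Each array was centred on its median, adjacent duplicate spots were averaged, a dye-orientation effect per probe was removed, and each animal's 2 arrays were then averaged. The reading as tissue ratios is an assumption that the arrays did not settle. Their deviations within animals had a median r of 0.00896, above 0 in 7 of 14 animals. Arrays of a group carry adjacent numbers, so the groups cannot be told apart from array order. Animals are the replicates. One limma model (version 3.58.1, R 4.3.3) with a mean for each of the 3 groups was fitted to 13818 probes, those missing in at most 1 animal per group, with Benjamini-Hochberg adjustment over all probes of a comparison and a threshold of 0.05. Adjusted p-values in the text are from this fit and two-sided. The fit was tested on simulated data.

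Symbols came from the platform annotation: 129 of 130 member genes had a gene ID in the bovine table of assembly ARS-UCD2.0, the exception being ARL6IP2, and 0 symbols changed. Positions are left out because no genome build is named in the files. Members named are those past the threshold, the 2 per family with the largest absolute mean of SCNT and IVF-ET, the 3 with the smallest p for a difference with no call, and RAB33A; others are said to be named after their values were seen. The members, roles, gene lists and markers were chosen with earlier results of these data known. Alternatives changed the reading of the sign, IVF-ET replicate 3, the dye effect, centring, scaling, print order, weights, eBayes, filter, groups fitted, probe averaging, each animal and the AI sign.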

Additional observations from a re-analysis of the deposited data

Results flagged for a closer look

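In groups of 4 or 5 animals, a value was marked where the gap between 1 animal and the nearest other took up more of the group's range than Dixon's critical value allows, which chance does in about 1 of 20 groups. Of 66 groups of values examined 12 were marked, 8 of them for SCNT replicate 5. Most of the genes examined were named for a large mean of SCNT and IVF-ET, which 1 extreme animal can produce. The rate of 1 of 20 is therefore not the expectation for these genes, and the count is a description.

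In SCNT replicate 5 the marked values were ARL10 at -3.32 (others -0.49 to -0.12), VPS26B at -2.32 (others -0.30 to 0.13), SNX22 at -1.51 (others -0.24 to 0.20), SNX9 at -0.72 (others -0.13 to 0.09) and ARF2 at -0.28 (others 0.01 to 0.06). STX2 was marked in the other direction, at 0.37 (others -0.29 to -0.15). The median over the 137 trafficking probes of this animal was -0.10 (others -0.03 to -0.01) and their SD 0.65 (others 0.16 to 0.27).

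SEC31A was marked in SCNT replicate 1, at 1.27 (others -0.17 to 0.20). In IVF-ET replicate 2, STX2 was marked at -0.44 (others -0.09 to -0.03), as was the median of the 137 probes at -0.0939 (others -0.03 to -0.02). RAB33A was marked in AI replicate 3, at 0.42 (others -0.04 to 0.04).

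The difference between SCNT and AI in SEC11C, 0.94 on the log2 scale, was marked because the test of the difference passed the threshold (limma adjusted p = 0.0481). All 5 SCNT animals were positive and 3 of 5 AI animals negative, and with the AI sign turned the difference was 0.47 and not called.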

How the results depend on the processing

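Reading the deposited values as dye ratios changed calls and signs. The calls in SCNT and in SCNT minus AI then numbered 0 each, with 0 of all probes called in either, AI called 2 (VPS72 and ARL6IP1) beside 360 of all probes, and the 1 call in the mean of SCNT and IVF-ET was SNX25 in place of SEC11C, beside 252. SEC11C then stood at -0.16 in SCNT minus AI and -0.0337 in IVF-ET minus AI, and in the mean of SCNT and IVF-ET the signs turned to 0.12 for RAB35, 0.0558 for ARL3, 0.0571 for VPS25, 0.0675 for SNX22, 0.13 for STX8, 0.12 for STX2 and 0.20 for VAMP3. The cause was not tested. Keeping IVF-ET replicate 3 with its second array turned left 0 calls in SCNT, in the mean of SCNT and IVF-ET and in SCNT minus AI, with 0 of all probes called. Fitting only the groups compared left 0 in SCNT and 0 in SCNT minus AI, beside 74 and 10 of all probes. SCNT minus AI also gave 0 with the first array of IVF-ET replicate 3 turned, with arrays scaled to 1 spread, with the print order trend taken off and with the AI sign turned. Array weights over animals raised the calls to 2 in IVF-ET (RAB12 and ARL3) and 7 in the mean of SCNT and IVF-ET (SEC11C, RAB8B, RAB32, RAB12, RAB31, RAB7B and ARL3), beside 215 and 1237 of all probes, and scaling gave 2 in that mean (SEC11C and RAB12), beside 630. Leaving out 1 animal in turn gave 0 to 1 calls in SCNT (42 to 325 of all probes), 1 to 3 in the mean of SCNT and IVF-ET (153 to 745) and 0 to 2 in SCNT minus AI (5 to 262). The AI sign turned together with leaving out SCNT replicate 5, an alternative chosen after seeing the data, gave 0 in SCNT minus AI, with 0 of all probes called. IVF-ET minus AI and SCNT minus IVF-ET gave 0 trafficking calls under every alternative run. No paired analysis was possible because a replicate number names a different animal in each group and pairs nothing. Ratios have no count depth, and 4 or 5 animals a group limit the precision, with arrays that did not correlate over the trafficking probes in the median animal. The smallest mean called among all probes in SCNT was 0.317 in size.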

Other observations

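IVF-ET replicate 3, whose arrays carry the same dye orientation and which entered no comparison, gave SEC11C ratios of opposite sign, -1.27 on one array and 1.36 on the other after the dye effect was taken off. Both duplicate spots agreed on each array, at -1.31 and -1.45 on the first and 1.17 and 1.34 on the second as deposited. These are among the largest SEC11C values of the 30 arrays. Over all probes the 2 arrays correlated at -0.39 after the dye effect was taken off.

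COPI coat genes, which return vesicles from the Golgi to the ER, had a median ratio over 7 genes of -0.24 in SCNT, -0.06 in IVF-ET and 0.08 in AI animals, and none was called. The SCNT value leaned on replicate 5, since per animal the median was -0.07, -0.01, -0.04, -0.03 and -0.58. IGHG1, a plasma cell gene, was the one secretory plasma cell marker called, at -1.55 ± 0.33 in SCNT (SE, limma adjusted p = 0.0236), with 4 of 6 such markers measured.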
